A study of Mus musculus with 39 samples.

Results

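The response of control nerves to crush injury was followed at 4 weeks post-crush (wpc) in 9 of the 39 bulk RNA-seq libraries of the series, taken as every library whose labels give the genotype *Lepr*-ctrl and this time point. Of these, 4 came from injured and 5 from healthy nerves. *Lepr*-ctrl mice were C57BL/6 mice of both sexes, 2 to 4 months old per the study's methods, with floxed leptin receptor alleles (Lepr fl/fl) and no Cre recombinase, so that all 9 libraries carry the floxed alleles and none carries a deletion. The *Lepr*-cKO mice used for comparison carried *Dhh*-Cre as well, which deletes in Schwann cells. The sciatic nerve was crushed unilaterally, and the uninjured nerve of the opposite leg is called healthy, so a healthy nerve is one from an operated animal and not from an untouched mouse. Animals WT-170, WT-171, WT-173 and WT-178 gave both nerves, and animal WT-168 gave its healthy nerve alone. RNA was taken from the endoneurium of the distal nerve, the tissue left after the perineurium is stripped off, so each library holds Schwann cells, axons, macrophages, fibroblasts and vessels together. The 10 *Lepr*-ctrl libraries at 2 wpc came from different mice.

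After a crush, axons distal to the lesion degenerate and their Schwann cells leave the myelinating state. They switch to a repair state, in which they shut down myelin genes, take up myelin debris together with invading macrophages and release trophic factors, and they later wrap the regrown axons again. Building myelin needs large amounts of cholesterol and fatty acids, most of which Schwann cells make themselves. Clearance of debris, regrowth and remyelination overlap in time, and by the fourth week after a crush axons have usually returned to the distal nerve while the new myelin is still thin. The comparison of injured with healthy nerves at 4 wpc therefore asks which programs still stood apart from the intact nerve late in repair.

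Depth differed between the groups. Total counts in the healthy nerves of animals WT-168, WT-170, WT-171, WT-173 and WT-178, the order in which healthy values are given below, ranged from 23380164 to 43521795 (median 28367026). In the injured nerves of animals WT-170, WT-171, WT-173 and WT-178, again in the order used below, they ranged from 10905806 to 17640587 (median 14158795). The deepest injured library was thus shallower than every healthy one. Composition moved with injury as well. Messenger RNA encoded by the mitochondrial genome held 1.84% ± 0.208 of all counts in the 5 healthy and 17.9% ± 1.97 in the 4 injured nerves (mean ± SD), and genes annotated as ribosomal RNA 0.0556% ± 0.0129 and 0.596% ± 0.116. The share of protein-coding genes was 97.9% ± 0.0816 in healthy and 95.3% ± 0.237 in injured nerves. Alternative fits were run for depth and for mitochondrial genes. Thinning all libraries to the smallest total gave 5626 called genes in place of the 6630 given below. Leaving out all mitochondrially encoded genes gave 6684. The part of these differences in the results below was otherwise not tested. Counts of *Xist* and *Ddx3y* placed 6 libraries as female (3 injured, 3 healthy) and 3 as male (1 injured, 2 healthy), and the 2 nerves of each animal matched in sex.

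**Figure D1:**
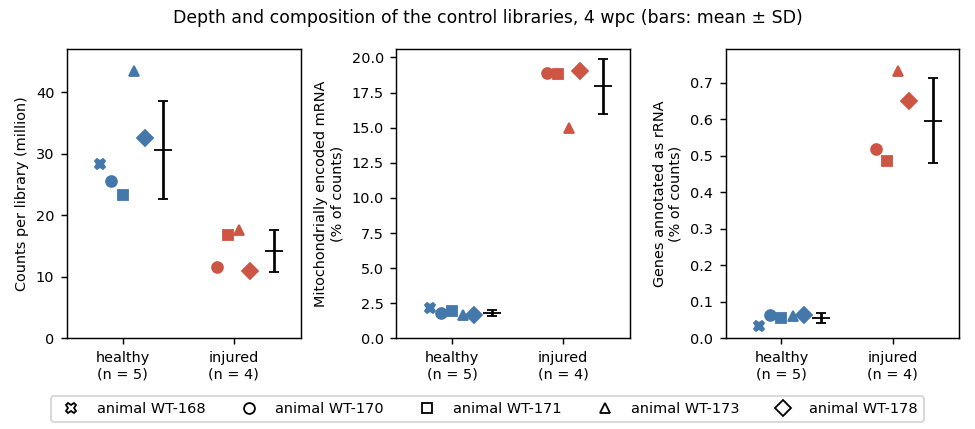
Total counts (left), counts from mitochondrially encoded mRNA (middle, percent) and counts from genes annotated as rRNA (right, percent) in the 5 healthy and 4 injured control nerves at 4 wpc; symbols mark animals and black bars the mean ± SD. The groups do not overlap in any of the 3 panels, and the injured nerve of animal WT-173 has the lowest mitochondrial share of the injured nerves.

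Most of the transcriptome differed. Of 18442 genes tested with edgeR's quasi-likelihood test, 6630 (36%) were called, that is, had a Benjamini-Hochberg adjusted p under 0.05 and a log2 fold change of injured against healthy beyond 1 in either direction. Of these, 3700 (20.1% of all tested genes) were higher and 2930 (15.9%) lower in injured nerves. With the adjusted p alone, 11721 genes (63.6%) passed, 5966 higher (32.4%) and 5755 lower (31.2%). The median log2 fold change of all tested genes was 0.02. The log2 CPM values of the 4 injured nerves lay wholly outside those of the 5 healthy nerves for 5690 (85.8%) of the called genes and for 54.8% of all tested genes, and 6195 called genes changed in the same direction in all 4 animals with both nerves, nerves tied at 0 counts taken as no change. Large changes were more often increases: 546 called genes were more than 16-fold higher and 115 more than 16-fold lower. Injured libraries were shallower, and 3 counts stood for a mean of 0.225 CPM in them and 0.108 CPM in healthy ones. The part of depth in this imbalance was not tested. The shares of all tested genes given above are the background for each list of genes below. The libraries are bulk tissue, in which fewer cells of a type cannot be told apart from less RNA per cell.

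Injured nerves at 4 wpc still held far less mRNA for myelin than healthy nerves. All 16 myelin genes of the list fell at an adjusted p under 0.05, and 14 were called lower, none higher (median log2 fold change -1.76). *Prx* (periaxin), which anchors the outer Schwann cell membrane, was at 8201, 8573, 8479, 8002 and 8870 CPM in healthy nerves and at 1260, 1200, 1271 and 1210 CPM in injured nerves (CPM, library-scaled counts with edgeR's TMM factors; animals in the order given above). The highest injured nerve had less than every healthy nerve. The means were 8425 ± 336 and 1236 ± 35.4 CPM, where ± after a CPM gives the SD over the 5 healthy or 4 injured nerves. Its log2 fold change was -2.77 ± 0.29 (adjusted p = 5.49e-10), the most negative value of the list, where ± after a log2 fold change gives its standard error and every adjusted p of a gene is from edgeR unless another tool is named. *Mbp*, which compacts the cytoplasmic faces of the membrane, and *Pmp22*, the gene duplicated in Charcot-Marie-Tooth disease type 1A, had log2 fold changes of -2.13 ± 0.29 (adjusted p = 7.97e-08) and -1.35 ± 0.30 (adjusted p = 0.000236). *Ncmap*, which encodes a protein of noncompact myelin, fell by less than the fold threshold (-0.81 ± 0.29, adjusted p = 0.0137). No injured nerve overlapped a healthy nerve for any of the 16 genes.

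The 16 genes together took 123968, 115837, 106113, 115810 and 116898 CPM in the healthy nerves and 33025, 37063, 38291 and 28415 CPM in the injured nerves. The groups were wide apart, and the lowest injured value belonged to animal WT-178.

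**Figure D2:**
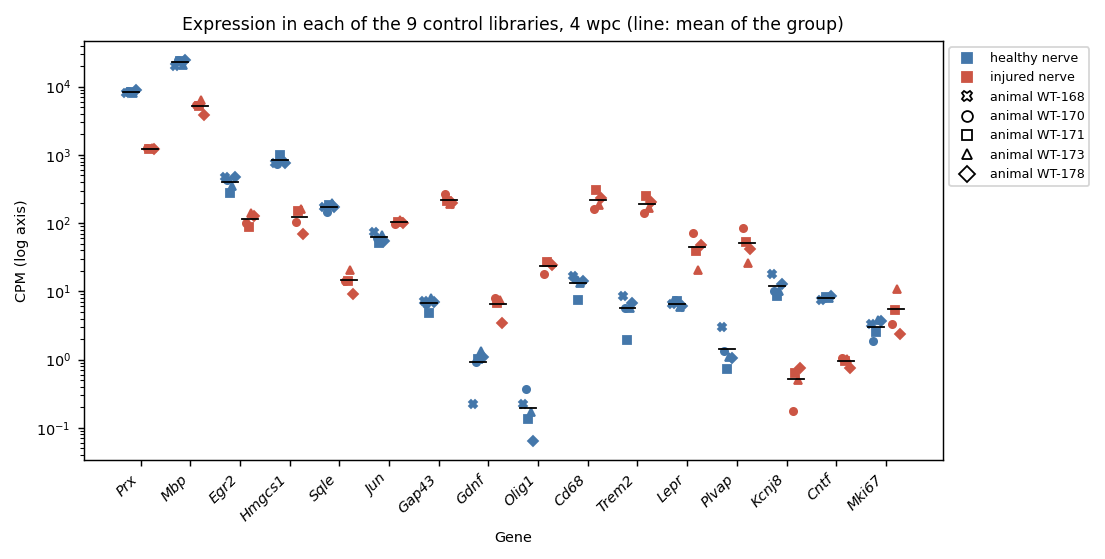
CPM on a log axis of 16 genes in the 5 healthy (blue) and 4 injured (red) control nerves at 4 wpc, with symbols for animals and black lines for group means. Genes of myelin and its regulation (*Prx*, *Mbp*, *Egr2*) and cholesterol genes (*Hmgcs1*, *Sqle*) lie lower in every injured nerve, *Gap43*, *Olig1*, *Cd68*, *Trem2* and *Lepr* higher, and *Mki67* overlaps between the groups.

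Regulators and identity genes of Schwann cells were split. *Egr2* (Krox20), the master regulator of myelination, was at 473, 431, 273, 353 and 468 CPM in healthy and at 99.8, 89.2, 140.3 and 127 CPM in injured nerves. Every injured nerve was below every healthy nerve, and the log2 fold change was -1.81 ± 0.26 (adjusted p = 2.99e-07). *Pou3f2* (Brn2) was the other called member of the 11 promyelinating factors (-1.88 ± 0.30, adjusted p = 1.80e-06). By contrast, *Pou3f1* (Oct6), which marks the promyelinating stage before *Egr2* takes over, had overlapping values, 68.1 ± 20.8 CPM in healthy and 52.7 ± 15.9 CPM, and did not pass the test (log2 fold change -0.37 ± 0.37, adjusted p = 0.391). *Zeb2*, *Nfatc4* and *Wwtr1* (TAZ) rose with log2 fold changes of 0.65, 0.87 and 0.56, all under the fold threshold, and *Tead1*, a DNA-binding partner of YAP and TAZ, fell (-0.91 ± 0.15, adjusted p = 2.30e-06). In all, 18.2% of the 11 factors were called, all lower, against 36% of all tested genes called and 15.9% called lower. Of the 8 identity genes, 5 were called lower, including *Sox10* (-1.71 ± 0.26, adjusted p = 6.48e-07), the lineage factor that Schwann cells need at every stage, *S100b* (-1.76) and *Foxd3* (-1.59). *Erbb3*, the neuregulin receptor, fell by less than the fold threshold (-0.98 ± 0.17, adjusted p = 1.05e-05), and *Gfra3* did not pass (0.98 ± 0.45, adjusted p = 0.0557) but was called higher in 4 alternatives (DESeq2, only the compared groups, and without the healthy nerve of animal WT-173 or the injured nerve of WT-178).

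Genes at the contact between axon and glia were reduced too. *Nfasc* (neurofascin), whose isoforms build the node of Ranvier and the paranode, had a log2 fold change of -2.20 ± 0.19 (adjusted p = 6.38e-12), *Cadm4* (Necl4), the glial adhesion protein of the internode, -2.28 ± 0.28 (adjusted p = 1.76e-08), and *Gldn* (gliomedin), which clusters sodium channels at nodes, -1.16 ± 0.23 (adjusted p = 3.82e-05). In all, 6 of the 11 tested junction genes were called lower and none higher, while *Epb41l3* (protein 4.1B) rose by 0.72 on the log2 scale. *Cntn2* was not tested, with at most 3 counts in any of the 9 libraries. Among 8 neuregulin and myelination receptor genes, 5 were called lower: *Adgrg6* (Gpr126), the receptor that starts *Egr2* expression (-1.85 ± 0.16, adjusted p = 1.46e-11), *Lgi4* and its receptor *Adam22* (-2.002 and -2.06), the neuregulin protease *Bace1* (-1.74), and *Nrg1* itself, at 3.15 ± 0.249 CPM in healthy and 0.516 ± 0.382 CPM in injured nerves. *Erbb2*, the co-receptor, did not pass (-0.10 ± 0.14, adjusted p = 0.555).

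Genes of the repair state were raised in part. Of 14 tested genes of repair Schwann cells, 9 were called higher and 1 lower (median log2 fold change 2.71). *Clcf1* had no count in the 9 libraries. *Gap43*, a growth-associated protein of non-myelinating and denervated Schwann cells as well as of growing axons, was at 7.15, 6.46, 4.84, 7.90 and 7.05 CPM in healthy and at 267, 214, 188 and 201 CPM in injured nerves. It was higher in each of the 4 animals, by 5.02 ± 0.24 (adjusted p = 1.58e-17) on the log2 scale. *Olig1*, a transcription factor of oligodendrocytes that repair Schwann cells switch on, went from 0.193 ± 0.117 to 23.9 ± 4.23 CPM, a log2 fold change of 6.96 ± 0.59 (adjusted p = 4.18e-12). The healthy value rests on 2 to 9 counts per library. *Gdnf*, which supports motor neurons, was at 0.222, 0.917, 1.03, 1.35 and 1.10 CPM in healthy and 8.01, 6.76, 7.52 and 3.47 CPM in injured nerves. The lowest injured nerve, that of animal WT-178, exceeded the highest healthy nerve, and the log2 fold change was 2.79 ± 0.42 (adjusted p = 6.09e-07). *Artn*, *Btc*, *Fgf5*, *Runx2*, *Gfap* and *Bdnf* were the other called members, with log2 fold changes of 4.28, 3.53, 5.78, 3.20, 1.74 and 2.62. For *Bdnf* this rests on 2, 3, 4, 7 and 4 counts in healthy and 7, 25, 20 and 0 in injured nerves, so that the groups overlapped and animal WT-178 went the other way.

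Some well-known members of this program changed less or did not pass. *Jun*, the transcription factor that drives the repair state, rose in all 4 animals by less than the fold threshold, from 61.7 ± 9.78 to 103 ± 7.44 CPM (log2 fold change 0.73 ± 0.22, adjusted p = 0.00493), and its groups did not overlap. *Ngfr* (p75NTR), the low-affinity neurotrophin receptor, was at 111, 62.8, 81.2, 148 and 84.7 CPM in healthy and 124, 142, 230.1 and 84.2 CPM in injured nerves. The groups overlapped, and the log2 fold change was 0.57 ± 0.37 (adjusted p = 0.174). *Sox2* (0.22 ± 0.25, adjusted p = 0.455) and *Shh* (-0.61 ± 0.35, adjusted p = 0.126) did not pass either. Without the injured nerve of animal WT-173, *Shh* was lower with an edgeR adjusted p of 0.0368 (0.0368 to 0.321 over 18 alternatives). *Lif*, a cytokine of early degeneration, was the member called lower (-1.27 ± 0.20, adjusted p = 2.00e-06). The adhesion genes that mark immature and Remak Schwann cells were low rather than high: 5 of 6 were called lower, including *Ncam1* (-2.004 ± 0.21, adjusted p = 4.37e-10), *L1cam* (-1.12) and *Cdh2* (N-cadherin), which fell by 21.8-fold from 122 ± 18.6 to 5.53 ± 2.13 CPM.

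Genes of cholesterol synthesis were low as a group. All 23 fell at an adjusted p under 0.05, 22 were called lower, and none of the 23 had overlapping groups (median log2 fold change -2.78). *Sqle*, the squalene epoxidase, was at 173.1, 145, 187, 197 and 174.5 CPM in healthy and at 14.1, 14.3, 20.7 and 9.29 CPM in injured nerves. No injured nerve came near the healthy range. The log2 fold change was -3.57 ± 0.27 (adjusted p = 2.70e-13). *Hmgcs1*, the HMG-CoA synthase of the early pathway, had a log2 fold change of -2.78 ± 0.31 (adjusted p = 2.07e-09). *Srebf2*, the transcription factor that turns these genes on when sterols are low, and *Insig1*, which retains the factor in the endoplasmic reticulum, fell with them (-2.96 and -3.38). *Ebp* had the smallest change (-0.41 ± 0.14, adjusted p = 0.0115). Of 12 genes of fatty acid synthesis, 10 were called lower, such as *Fasn* (fatty acid synthase), from 526 ± 104 CPM to 114 ± 19.9 CPM (-2.21 ± 0.23, adjusted p = 4.52e-10), *Elovl6* (-2.86) and *Scd2*, a stearoyl-CoA desaturase (-2.13). *Scd1*, a related desaturase, rose (0.86 ± 0.21, adjusted p = 0.000497), and *Srebf1* did not pass (-0.19 ± 0.20, adjusted p = 0.424).

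Because these genes moved together, their promoters were read for the motifs that sterol control is known to use, the CCAAT box, which binds NF-Y, and the sterol regulatory element, which binds SREBP. RefSeq promoter windows (build GRCm38.p6) were at hand for 17 of the 23 genes, in 20 windows, and the 250 bases before the start site were searched on both strands. CCAAT was found in 16 of the 20 windows (80%), from 16 genes, and in 33.8% of all 32851 windows. TCACCCCAC, an exact sterol regulatory element, was found in 1 window, that of *Hmgcs1*, and in 0.496% of all windows. These are matches of letters, not shown binding sites. The upstream bases are printed for *Hmgcs1*, the gene with both motifs, and for *Hsd17b7* and *Sc5d*, the genes with a window that fell most (log2 fold changes -4.08 ± 0.25 and -3.49 ± 0.20, adjusted p = 5.82e-15 and 9.14e-16), all 5′ to 3′ on the strand of the gene. Capitals mark CCAAT or its complement ATTGG and the TCACCCCAC element.
*Hmgcs1*, chr13:119690101-119690350, plus strand: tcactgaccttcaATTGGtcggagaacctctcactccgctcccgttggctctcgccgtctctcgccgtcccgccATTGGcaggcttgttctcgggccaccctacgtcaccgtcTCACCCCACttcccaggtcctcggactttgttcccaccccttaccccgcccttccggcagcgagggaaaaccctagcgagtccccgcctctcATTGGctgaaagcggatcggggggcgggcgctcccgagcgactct
*Hsd17b7*, chr1:169969206-169969455, minus strand: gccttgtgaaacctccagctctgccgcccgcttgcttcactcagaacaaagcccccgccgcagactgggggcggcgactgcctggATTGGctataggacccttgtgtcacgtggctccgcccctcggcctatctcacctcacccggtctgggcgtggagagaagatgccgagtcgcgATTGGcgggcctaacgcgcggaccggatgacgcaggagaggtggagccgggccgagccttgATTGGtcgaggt
*Sc5d*, chr9:42264301-42264550, minus strand: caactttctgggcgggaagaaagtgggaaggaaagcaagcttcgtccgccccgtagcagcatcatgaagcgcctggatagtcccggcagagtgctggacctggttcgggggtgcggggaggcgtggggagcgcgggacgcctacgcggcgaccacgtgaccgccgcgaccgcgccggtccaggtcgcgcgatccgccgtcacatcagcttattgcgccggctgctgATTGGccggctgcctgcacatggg
*Hmgcs1* and *Hsd17b7* each hold the CCAAT box 3 times in this stretch and *Sc5d* holds it once, all as ATTGG on the strand of the gene, that is, with CCAAT on the opposite strand.

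Each of the 7 mitochondrially encoded OxPhos genes that could be measured was called higher (median log2 fold change 3.25). *mt-Co1*, a core subunit of complex IV, was at 6119, 5222, 6020, 5090 and 5021 CPM in healthy and 52152, 57812, 43432 and 55778 CPM in injured nerves. Animal WT-173 had the lowest injured value, still far above every healthy nerve, and the log2 fold change was 3.25 ± 0.43 (adjusted p = 6.72e-08). *mt-Nd3*, *mt-Nd4l*, *mt-Co2*, *mt-Co3*, *mt-Atp6* and *mt-Atp8* had at most 2 counts per library and were not tested. The nuclear-encoded subunits moved far less. Of 76, 11 were called higher and none lower (14.5%, against 20.1% of all tested genes called higher), and 51 (67.1%, against 32.4% of all) rose at an adjusted p under 0.05 (median 0.56), led by *Ndufb1-ps* and *Ndufa1* (1.60 and 1.56). *Atp5g1* and *Sdha* fell (-0.90 and -0.46). Fold changes moved with transcript length over all tested genes, as given below. The fifth of genes with the shortest summed exons had a median of 0.43 and 30.8% called higher. The part of length in the rise of nuclear-encoded subunits was not tested. Glycolysis had no common direction: 2 of 21 genes were called higher and 4 lower (median 0.16). *Hk2*, the inducible hexokinase, rose from 5.001 ± 1.34 to 19.5 ± 2.60 CPM (1.96 ± 0.44, adjusted p = 0.000241), while *Hk1*, the constitutive form, fell (-1.50 ± 0.18, adjusted p = 1.25e-08). *Ldhb*, the lactate dehydrogenase subunit that favours pyruvate, fell (-1.45 ± 0.17, adjusted p = 7.95e-09), as did the lactate transporter *Slc16a1* (-1.01 ± 0.37, adjusted p = 0.0185), and *Ldha* rose (0.96 ± 0.32, adjusted p = 0.0103).

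Genes of cytosolic ribosomal proteins were raised as well. Of 78 tested, 57 were called higher and none lower (median log2 fold change 1.49), and their summed level went from 4743, 4226, 3939, 4232 and 4662 CPM in healthy to 13864, 14786, 12034 and 12898 CPM in injured nerves. The 77 mitochondrial ribosomal protein genes gave 6 higher calls and a median of 0.35. Both kinds of gene are short, and fold changes moved with transcript length over all tested genes. The median log2 fold change was 0.43 in the fifth of genes with the shortest summed exons (up to 1855 bases), 0.22, 0.04 and -0.11 in the next 3 groups of the same size, and -0.27 in the fifth with the longest. The part of length in the rise of ribosomal and nuclear-encoded OxPhos genes was not tested.

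*Lepr* (ENSMUSG00000057722, chromosome 4 from 101717404 to 101815352 in GRCm38), the gene floxed in these mice, was at 6.63, 7.38, 7.12, 5.85 and 6.18 CPM in healthy and 71.6, 38.6, 20.8 and 47.3 CPM in injured nerves. It was higher in every injured nerve, most in animal WT-170 and least in WT-173 (log2 fold change 2.75 ± 0.33, adjusted p = 6.72e-09). It was the only member of a list of 10 leptin receptor pathway genes to be called, with *Ptpn2* called too without the injured nerve of animal WT-178. The phosphatases *Ptpn1* (PTP1B) and *Ptpn2*, which switch the receptor's kinase off, rose by less than the fold threshold (0.86 and 0.95), *Jak2*, that kinase, and *Sh2b1*, its enhancer, fell (-0.57 and -0.57), and *Stat3* and *Socs3*, the effector and feedback inhibitor, did not pass (-0.06 ± 0.10 and 0.24 ± 0.22, adjusted p = 0.628 and 0.34). *Lep*, the ligand, is made by adipocytes. It had at most 1 count in each healthy nerve and 47, 53, 0 and 1 counts in the injured nerves, so that nearly all of its signal came from animals WT-170 and WT-171 (edgeR adjusted p = 0.0165; 0.0607 among female animals only and 0.00535 to 0.0607 over 17 alternatives). Other adipocyte genes had the same split. *Adipoq* (adiponectin) had no count in the 5 healthy nerves and 205, 415, 0 and 0 in the injured ones, and *Plin1*, the coat protein of fat droplets, at most 3 counts in healthy and 59, 264, 0 and 2 in injured nerves. Of 10 tested adipocyte markers, 8 were called higher, or 3 with only the compared groups in the fit. Their median log2 fold change was 6.96, or 5.72 with *Adipoq*, *Cidec*, *Lep* and *Plin1*, which had at most 3 counts in every healthy nerve, set to the bound that 3 counts per library allow. The list summed to 29.1, 185, 29.7, 26.2 and 124.6 CPM in healthy and 415, 465, 102 and 140.1 CPM in injured nerves, with *Plin4* the most abundant member per length in healthy and *Cfd* in injured nerves. *Fabp4*, a fatty acid carrier of adipocytes that macrophages and endothelium also express, was high in all 4 injured nerves, at 188, 193, 83.7 and 101 CPM.

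Macrophage genes stayed high in the injured endoneurium. Of 21 macrophage markers, 17 were called higher and 2 lower (median log2 fold change 2.73), and their summed level was 591, 849, 444, 582 and 599 CPM in healthy and 2826, 5677, 4264 and 4399 CPM in injured nerves. *Adgre1* (F4/80), a surface marker of tissue macrophages, was at 10.4, 10.96, 5.87, 10.3 and 9.25 CPM in healthy and 63.9, 116, 79.8 and 85.6 CPM in injured nerves. Every injured nerve exceeded every healthy nerve, with the highest value in animal WT-171. The log2 fold change was 3.20 ± 0.33 (adjusted p = 2.82e-10). *Cd68*, a lysosomal protein of phagocytes, was higher by 4.06 ± 0.33 (adjusted p = 2.58e-12). The markers did not move as a block. *Cd163*, the hemoglobin scavenger receptor of resident macrophages, fell from 32.3 ± 18.1 to 12.4 ± 4.54 CPM (-1.39 ± 0.45, adjusted p = 0.00737) in all 4 animals although the groups overlapped, and without the healthy nerve of animal WT-170 it stayed under the fold threshold (-0.999). *Mertk* fell (-1.45 ± 0.25, adjusted p = 6.17e-06), and *Lyve1* and *Timd4* did not pass. *Mrc1* (CD206) rose (1.11 ± 0.35, adjusted p = 0.00587), but without the injured nerve of animal WT-171 its adjusted p was 0.0539, and among female animals only 0.0681 (0.00112 to 0.0681 over 18 alternatives).

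Genes with which phagocytes handle lipid were high as well. Of 25, 19 were called higher and 1, the tetraspanin *Cd9*, lower (median log2 fold change 2.67). *Trem2*, a lipid receptor of phagocytes, was at 8.67, 5.75, 1.93, 5.68 and 6.70 CPM in healthy and 141, 249, 164 and 207 CPM in injured nerves. The groups were far apart, and the log2 fold change was 5.04 ± 0.37 (adjusted p = 1.91e-13). *Gpnmb*, a glycoprotein of lipid-laden macrophages, rose from 102 ± 39.5 to 1640 ± 625 CPM (4.00 ± 0.33, adjusted p = 1.96e-12), and *Apoe*, the carrier of cholesterol in nerve, from 1163 ± 139 to 12321 ± 4973 CPM (3.41 ± 0.23, adjusted p = 5.46e-14). The cholesterol exporter *Abca1* and the droplet coat protein *Plin2* rose by 3.23 and 3.29, whereas the exporter *Abcg1* fell (-0.58 ± 0.16, adjusted p = 0.00259). *Cd5l*, a secreted macrophage protein, had 1 to 4 counts in each healthy nerve and was at 40.8, 115.4, 26.9 and 75.1 CPM in the injured nerves. *Spp1* (osteopontin) did not pass (-0.38 ± 0.18, adjusted p = 0.0682), with 1320 ± 213 CPM in healthy and 1013 ± 134.9 CPM in injured nerves.

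**Figure D3:**
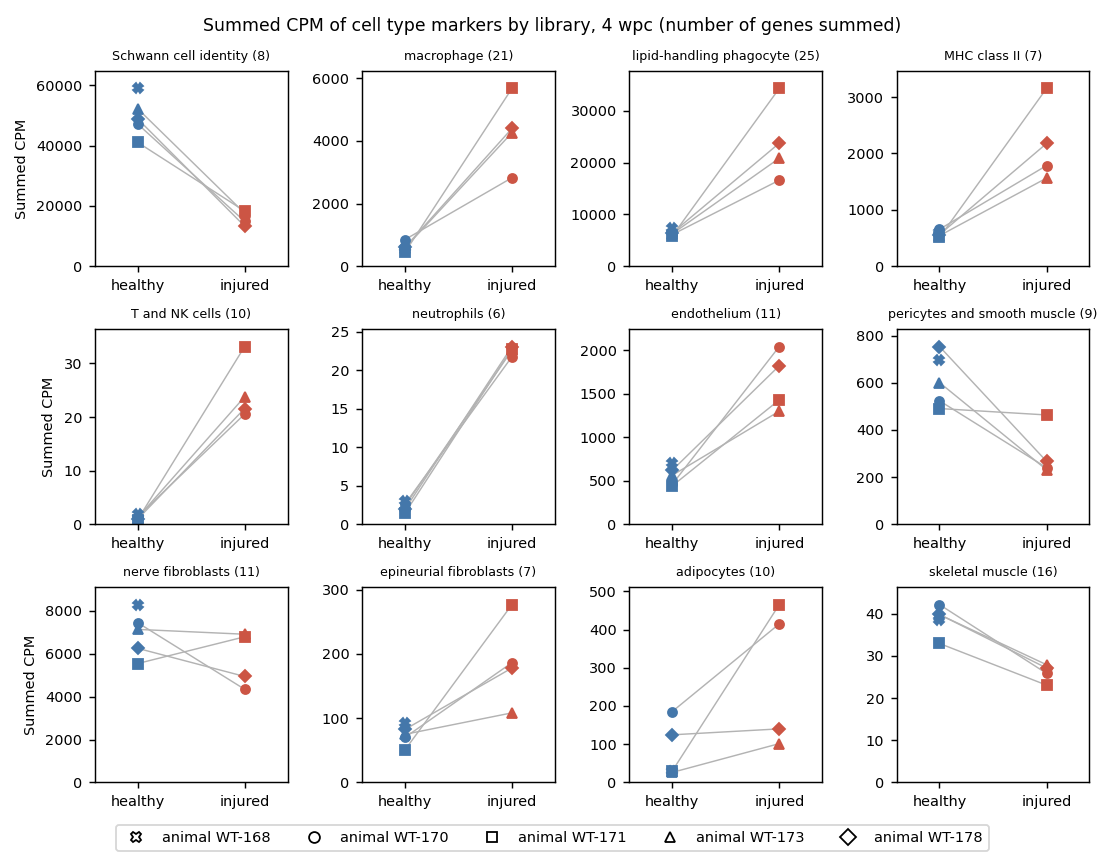
Summed CPM of the tested genes of 12 lists in each control nerve at 4 wpc, healthy in blue and injured in red, with symbols for animals and grey lines joining the nerves of an animal; each panel has its own axis from 0. Macrophage, MHC class II, T and NK cell, neutrophil and endothelial sums are higher in every injured nerve, Schwann cell sums are lower, and adipocyte sums are highest in the injured nerves of animals WT-170 and WT-171.

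Antigen presentation and complement followed the macrophage genes in part. *Cd74*, the invariant chain of MHC class II, was at 153, 193, 119, 133 and 129 CPM in healthy and 708, 1270, 584 and 855 CPM in injured nerves, without overlap (2.55 ± 0.49, adjusted p = 2.93e-05). It was called higher with *Ciita*, *H2-Aa*, *H2-Ab1* and *H2-Eb1*, while *H2-DMa* and *H2-DMb1*, which load peptides, were called lower (-1.39 and -1.35). Of 15 complement genes, 9 were called higher, including the 3 chains of C1q, which the macrophage list also holds, and 2 lower, *C4b* (-1.87) and *Masp1* (-3.81). All 10 T and NK cell markers were called higher, at low levels, or 6 with only the compared groups in the fit. They summed to 1.93, 1.42, 0.851, 1.23 and 0.971 CPM in healthy and 20.6, 33.1, 23.8 and 21.6 CPM in injured nerves, *Cd4*, which mouse macrophages can express too, being the most abundant per length, and *Cd3e* and *Cd5* had at most 2 counts in each healthy nerve, *Cd5* also having none in the injured nerve of animal WT-178. Of 4 tested B cell genes, 3 were called higher, and *Ms4a1* was not tested. The 6 tested neutrophil genes gave 4 higher calls, but *Ly6g*, *Ngp*, *Camp* and *Cxcr2* had at most 3 counts and the sum stayed at or below 23.1 CPM. Mast cell markers showed no common change: only *Kit* of 8 was called, lower (-1.99 ± 0.42, adjusted p = 0.000112), a gene that other cells of the nerve may express as well.

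Interferon-stimulated genes had no common direction. Of 18, 1 was called higher and 4 lower (median log2 fold change -0.45). *Oas1a* was called higher (2.16 ± 0.32, adjusted p = 6.09e-07), and *Ifit1*, *Ifit2*, *Ifit3* and *Rsad2* were called lower, with overlapping groups for *Ifit1* and *Ifit3*. The list summed to 472, 308, 365, 888 and 361 CPM in healthy and 296, 342, 329 and 354 CPM in injured nerves, and the healthy nerve of animal WT-173 stood above the others. Without that library, 2 were called higher and 2 lower, and the median turned to 0.08. With the animal as a block, 1 was called higher and 2 lower, and without the healthy nerve of animal WT-170, 6 were called lower. Hemoglobin and other erythrocyte genes summed to 25.2, 36.7, 17.9, 28.4 and 9.67 CPM in healthy and 6.44, 13.9, 0.947 and 3.66 CPM in injured nerves, and 2 of 5 were called lower, a number that ranged from 0 to 4 among the other fits.

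The vessel wall changed in opposite ways. Of 11 endothelial genes, 8 were called higher and none lower (median log2 fold change 1.57). *Plvap*, which forms the diaphragms of fenestrated capillaries, was at 2.97, 1.33, 0.716, 1.11 and 1.07 CPM in healthy and 84.9, 52.5, 26.3 and 41.4 CPM in injured nerves. Each injured nerve was well above the healthy range (5.15 ± 0.74, adjusted p = 2.55e-07). *Pecam1* (1.57), *Esam* (1.84) and *Cldn5*, a tight junction protein of the blood-nerve barrier (1.10), were also called, and the VEGF receptors *Flt1* and *Kdr* did not pass (0.51 ± 0.33 and 0.01 ± 0.31, adjusted p = 0.185 and 0.976). Of 9 pericyte and smooth muscle genes, 5 were called lower and none higher (median -2.003). The calls were *Kcnj8* and *Abcc9*, the subunits of a potassium channel (-4.51 and -3.10), *Pdgfrb* (-2.003), *Rgs5* (-2.19) and *Notch3* (-2.18). *Kcnj8* was at 17.9, 10.3, 8.55, 10.1 and 12.6 CPM in healthy nerves and, on 2 to 10 counts per library, at 0.174, 0.637, 0.501 and 0.751 CPM in injured nerves. The smooth muscle genes *Acta2*, *Myh11* and *Tagln* did not pass (0.35 ± 0.44, 0.80 ± 0.56 and -0.26 ± 0.21, adjusted p = 0.502, 0.207 and 0.295).

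Connective tissue was mixed. Among nerve fibroblast genes, 4 of 11 were called higher and 2 lower, or 1 lower without the healthy nerve of WT-168 or WT-170 or the injured nerve of WT-170 or WT-178 (median log2 fold change 0.61). *Wif1*, a secreted WNT inhibitor, rose from 0.163 ± 0.130 to 18.2 ± 6.40 CPM (6.71 ± 0.54, adjusted p = 1.35e-12), and *Fbln1*, *Sox9* and *Osr2* rose by 4.39, 1.81 and 1.22. *Pdgfra*, the marker of the whole lineage, fell from 90.3 ± 29.7 to 40.0 ± 6.53 CPM (-1.17 ± 0.42, adjusted p = 0.0164), a call lost without the healthy nerve of animal WT-170 (adjusted p = 0.0578; 0.000328 to 0.0578 over 18 alternatives). *Col1a1*, the main chain of type I collagen, was at 2092, 1565, 1165, 1768 and 1506 CPM in healthy and 836, 1053, 1240 and 753 CPM in injured nerves. The groups overlapped. It passed at an adjusted p of 0.0228 (log2 fold change -0.74), which was 0.0549 without the healthy nerve of animal WT-168, 0.0541 and 0.0674 without the injured nerves of animals WT-170 and WT-178, and 0.0885 among female animals only (0.0038 to 0.0885 over 18 alternatives). Of 18 collagen chains, 6 were called lower, including the basement membrane chains *Col4a1* and *Col4a2* (-1.99 and -1.97), *Col12a1* and *Col14a1* (-2.89 and -2.42), and 1 higher, *Col16a1* (1.01), a call lost when any of 6 libraries was left out in turn. *Timp3*, a matrix-bound protease inhibitor, fell (-3.52 ± 0.40, adjusted p = 2.77e-09) and *Timp1* rose (3.69 ± 0.30, adjusted p = 2.59e-12). Markers of the outer sheaths were mixed in these stripped nerves. Of 7 epineurial fibroblast genes, 5 were called higher (median 2.08), and they summed to 91.8, 70.0, 50.5, 74.9 and 82.4 CPM in healthy and 186, 277, 108 and 178.1 CPM in injured nerves. Animal WT-171 was highest, *Sfrp2* having 21, 101, 0 and 0 and *Pcolce2* 42, 194, 46 and 15 counts in the injured nerves, and without its injured nerve the median was 1.42. The perineurial genes *Cldn1*, *Krt19* and *Lypd2* were called higher too (3.68, 5.85 and 5.64), *Itgb4*, which Schwann cells share, lower, and *Slc2a1* did not pass (0.12 ± 0.21, adjusted p = 0.628). The 5 perineurial genes summed to 1176, 1061, 929, 1066 and 1051 CPM in healthy and 509.6, 522, 493 and 573 CPM in injured nerves, lower in every injured nerve, with *Itgb4* the largest part of the healthy sums. Their part in the fibroblast results was not tested. Skeletal muscle genes had low sums in all 9 libraries, at 38.5, 42.2, 33.0, 39.8 and 39.8 CPM in healthy and 25.9, 23.1, 27.9 and 27.1 CPM in injured nerves, lower in every injured nerve, with *Casq1* the most abundant per length and *Myh1* at 0 counts in each library. Of 16 tested, 1 was called higher (6.25%, against 20.1% of all tested genes) and none lower. *Tnni2* had at most 10 counts in healthy and 48, 81, 96 and 65 in injured nerves. *Pvalb* had 89, 75, 72, 115 and 99 counts in healthy and 3, 1, 1 and 7 in injured nerves.

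Neuronal and axonal transcripts, which reach the nerve by axonal transport or come from glia, were mostly low: 6 of 8 were called lower and 1 higher (median log2 fold change -1.50). The neurofilament genes *Nefh*, *Nefm* and *Nefl* fell (-2.86, -1.90 and -1.51), *Tubb3*, a tubulin of growing axons, rose (1.78 ± 0.24, adjusted p = 5.81e-08), and *Stmn2* did not pass (-0.05 ± 0.16, adjusted p = 0.791). Immediate early genes were called higher in 8 of 13 cases, such as *Atf3* (1.28 ± 0.24, adjusted p = 2.04e-05) and *Fosl2* (1.45 ± 0.19, adjusted p = 3.35e-08), and *Nr4a1* was called lower (-1.51 ± 0.27, adjusted p = 8.07e-06).

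Secreted signals were selective. Of 17 tested growth factor genes, 9 were called higher and 4 lower (median log2 fold change 1.89, or 0.90 with only the compared groups in the fit and 0.83 with a mean CPM above 1), and *Artn*, *Bdnf*, *Btc*, *Fgf5*, *Gdnf* and *Lif* are also in the repair list. *Igf1*, a survival factor that macrophages supply, rose from 9.59 ± 2.70 to 158 ± 30.1 CPM (4.04 ± 0.36, adjusted p = 1.22e-11). *Cntf*, a factor stored by myelinating Schwann cells, was at 7.41, 7.88, 8.28, 8.12 and 8.64 CPM in healthy and 1.04, 0.956, 1.00 and 0.751 CPM in injured nerves. The values were tight in both groups and far apart (-3.09 ± 0.34, adjusted p = 1.70e-09). *Fgf2* and *Fgf7* were called lower as well (-1.61 and -1.82). In the hedgehog pathway, *Dhh*, the ligand that Schwann cells send to the perineurium, fell from 417 ± 24.2 to 92.8 ± 22.0 CPM (-2.17 ± 0.22, adjusted p = 2.82e-10), with *Smo* and *Cdon*, and *Boc* was called higher. The transcriptional targets did not pass: *Gli1* was at 38.4 ± 10.2 and 55.4 ± 15.3 CPM (0.53 ± 0.41, adjusted p = 0.266; 0.0312 with only the compared groups in the fit and 0.0312 to 0.569 over 18 alternatives), and *Ptch1* had a log2 fold change of 0.32 ± 0.39 (adjusted p = 0.491). *Hhip*, a hedgehog antagonist, was below 1.3 CPM in all 9 libraries (1.498 ± 0.80, adjusted p = 0.0995; 0.0419 to 0.86 over 15 alternatives). Its counts in the injured nerves were 0, 20, 4 and 4, and without that of animal WT-171 the log2 fold change was 0.22.

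**Figure D4:**
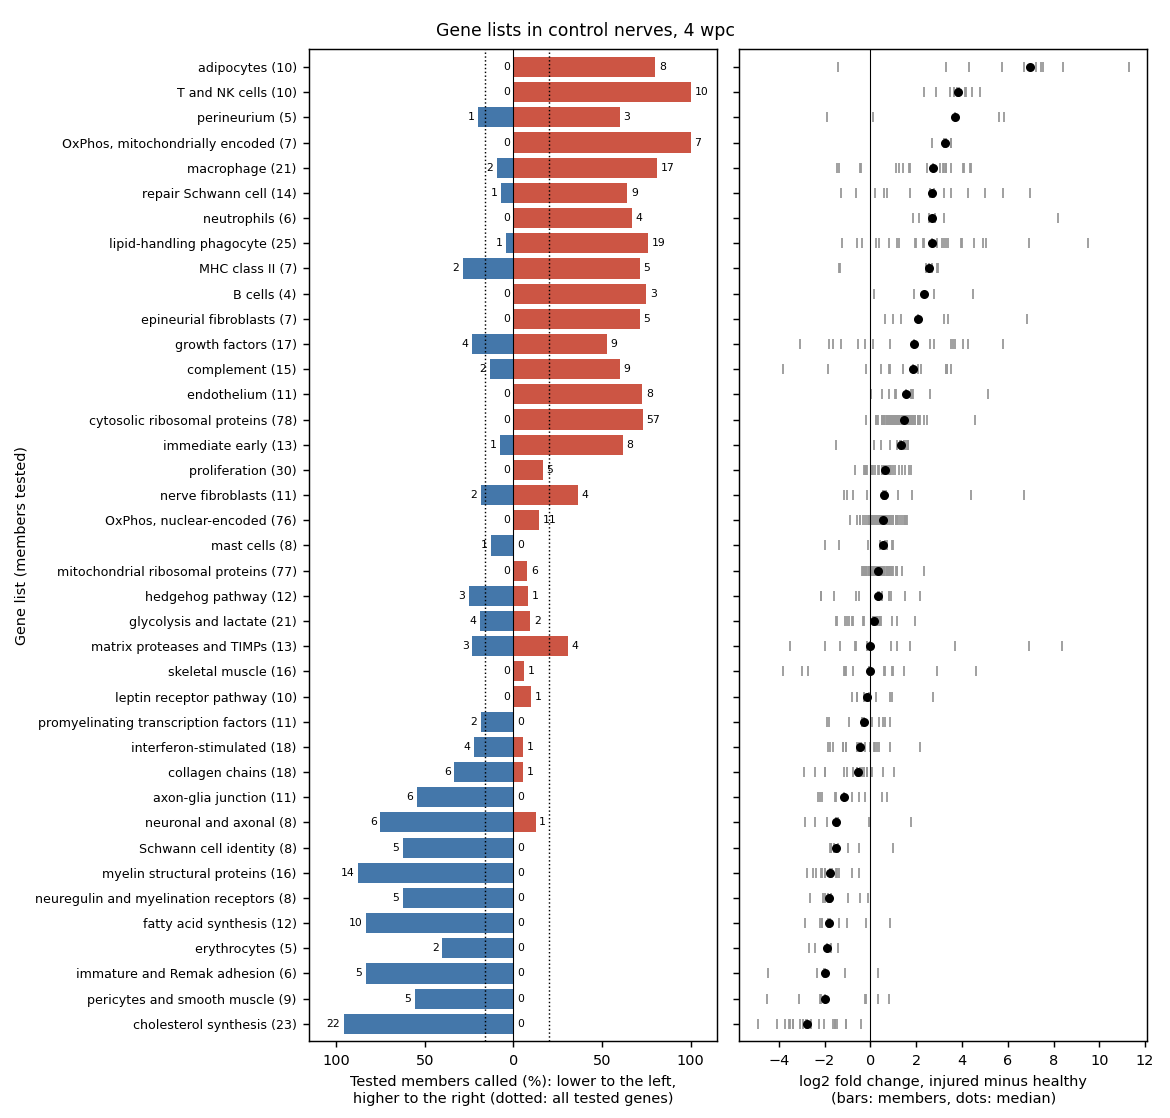
Left, percent of the tested members of 39 gene lists called lower (blue, to the left) and higher (red, to the right) in injured control nerves at 4 wpc, with the number called beside each bar and dotted lines at the 15.9% and 20.1% of all tested genes; right, log2 fold changes of the members (grey bars) and their median (dots). Cholesterol synthesis has the lowest median, -2.78, and the adipocyte list, several members of which had at most 7 counts in the injured nerves of WT-173 and WT-178, the highest, 6.96.

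The genes with the largest changes, taken among called protein-coding genes with a mean log2 CPM of more than 3 whose groups do not overlap, number 6 in each direction. The increases were *Fabp4* (7.23 ± 1.30, adjusted p = 1.20e-05), *Atp6v0d2*, a subunit of the vacuolar proton pump of osteoclasts and phagocytes (7.14 ± 0.57, adjusted p = 1.46e-12), *Aqp1*, a water channel (6.84 ± 0.74, adjusted p = 1.06e-09), *Fgd3*, an activator of the GTPase Cdc42 (6.15 ± 0.37, adjusted p = 2.38e-15), *Aldh1a3*, which makes retinoic acid (6.00 ± 1.03, adjusted p = 6.21e-06), and *Cdo1*, the cysteine dioxygenase (5.16 ± 0.63, adjusted p = 1.02e-08). *Atp6v0d2* was at 3.56, 3.50, 1.57, 2.05 and 2.33 CPM in healthy and 348, 351, 343 and 423 CPM in injured nerves. Its injured values were close together apart from animal WT-178, which was highest. *Cdo1* was at 111, 118, 108 and 112 CPM in injured nerves against 3.41, 4.92, 2.42, 2.72 and 2.30 CPM in healthy ones. The decreases included *Etnppl*, an enzyme that breaks down phosphoethanolamine (-5.66 ± 0.35, adjusted p = 5.39e-15), *Ankfn1* (-4.78 ± 0.39, adjusted p = 1.60e-12), *Sptb*, the erythroid beta spectrin (-4.58 ± 0.48, adjusted p = 5.48e-10), *Cnmd* (chondromodulin), an inhibitor of vessel growth (-4.48 ± 0.42, adjusted p = 3.75e-11), and *Adcy8*, an adenylyl cyclase (-4.45 ± 0.40, adjusted p = 1.98e-11). *Etnppl* was at 129, 168.7, 124.7, 112 and 166 CPM in healthy and 4.88, 2.36, 1.28 and 2.91 CPM in injured nerves, with no injured nerve near the healthy range.

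Of 30 genes of the cell cycle, 5 (16.7%) were called higher at 4 wpc and none lower, against 20.1% of all tested genes called higher, and 13 (43.3%) rose at an adjusted p under 0.05, against 32.4%. The median log2 fold change was 0.63. The number called higher was 3 without the injured nerve of animal WT-173, and 8 without that of WT-178 or with the animal as a block. *Mki67*, present only in cycling cells, was at 3.299, 1.88, 2.51, 3.83 and 3.69 CPM in healthy and 3.31, 5.35, 10.9 and 2.35 CPM in injured nerves. The groups overlapped, with the highest value in the injured nerve of animal WT-173, and the change did not pass (0.87 ± 0.40, adjusted p = 0.0584), although it did in DESeq2 (adjusted p = 0.043) and without the injured nerves of animals WT-170 (0.0381) or WT-178 (0.0230; 0.023 to 0.583 over 18 alternatives). *Top2a*, which untangles replicated DNA, was called (1.07 ± 0.35, adjusted p = 0.00738) but was under the fold threshold without the healthy nerve of animal WT-170 or WT-171, and had an adjusted p of 0.126 without the injured nerve of animal WT-173 and of 0.0593 among female animals only (0.00261 to 0.126 over 18 alternatives).

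At 2 wpc the same genes had stood far higher. In the control nerves of that time, from other mice, the 30 cell cycle genes had a median log2 fold change of 2.22 and 24 (80%) were called higher, against 19.8% of all tested genes. The difference between the responses was tested as an interaction, which called 815 of all tested genes (4.42%), 296 higher (1.61%) and 519 lower (2.81%) at 4 wpc. Without the injured nerve of 2-week animal WT-123 it called 583, 193 of them higher, and without that of WT-144 1084, 410 of them higher. With the adjusted p alone, 9.1% of all tested genes passed, and 5.05% had a lower response at 4 wpc, and 24 of the 30 cell cycle genes were among them. For *Mki67* the response was 3.75 (standard error 0.40) at 2 wpc, and the difference was -2.88 ± 0.55 (adjusted p = 0.00124). For *Top2a* the difference was -2.96 ± 0.48 (adjusted p = 0.000256). Of the genes called at 4 wpc, 4686 were called at 2 wpc in the same direction, 1930 were not called at 2 wpc and 14 were called in the opposite direction.

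Within the Schwann cell programs, responses at the 2 times differed for some genes and were not shown to differ for others. *Ngfr*, *Pou3f1* and *Sox2* had been raised at 2 wpc, with log2 fold changes of 2.52, 1.51 and 1.42, and the differences, 4 wpc minus 2 wpc, were -1.95 ± 0.52 (adjusted p = 0.0146), -1.88 ± 0.51 (adjusted p = 0.0164) and -1.20 ± 0.35 (adjusted p = 0.0261). The test for *Pou3f1* gave an adjusted p of 0.0644 without the injured nerve of 2-week animal WT-123 (0.00336 to 0.0644 over 27 alternatives). *Ncam1*, *Foxd3* and *Chl1* had lower responses at 4 wpc than at 2 wpc, with differences of -1.37 ± 0.27 (adjusted p = 0.00161), -1.58 ± 0.41 (adjusted p = 0.0124) and -2.22 ± 0.48 (adjusted p = 0.00283). For *Dhh* the difference was -0.95 ± 0.29 (adjusted p = 0.0312), which missed the threshold without the injured nerve of animals WT-171 (0.0576) or WT-178 (0.0627), without that of 2-week animal WT-123 (0.0694), with no expression filter (0.0507) and with only the compared groups fitted (0.0536; 0.000691 to 0.0693 over 27 alternatives). For *Jun*, *Gdnf*, *Olig1* and *Shh* the difference did not pass (-0.54 ± 0.31, -1.46 ± 0.57, -1.08 ± 0.99 and -1.18 ± 0.47, adjusted p = 0.279, 0.103, 0.543 and 0.111). No such difference passed for *Prx* (0.03 ± 0.36, adjusted p = 0.97), *Mbp* (0.04 ± 0.37, adjusted p = 0.97), *Egr2* (-0.22 ± 0.34, adjusted p = 0.741) or any of the 23 cholesterol genes, whose median log2 fold change was -2.13 at 2 wpc. In the myelin list, *Drp2*, a partner of periaxin, had a higher (1.26) and *Mag*, an adhesion protein facing the axon, a lower response (-1.13) at 4 wpc.

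**Figure D5:**
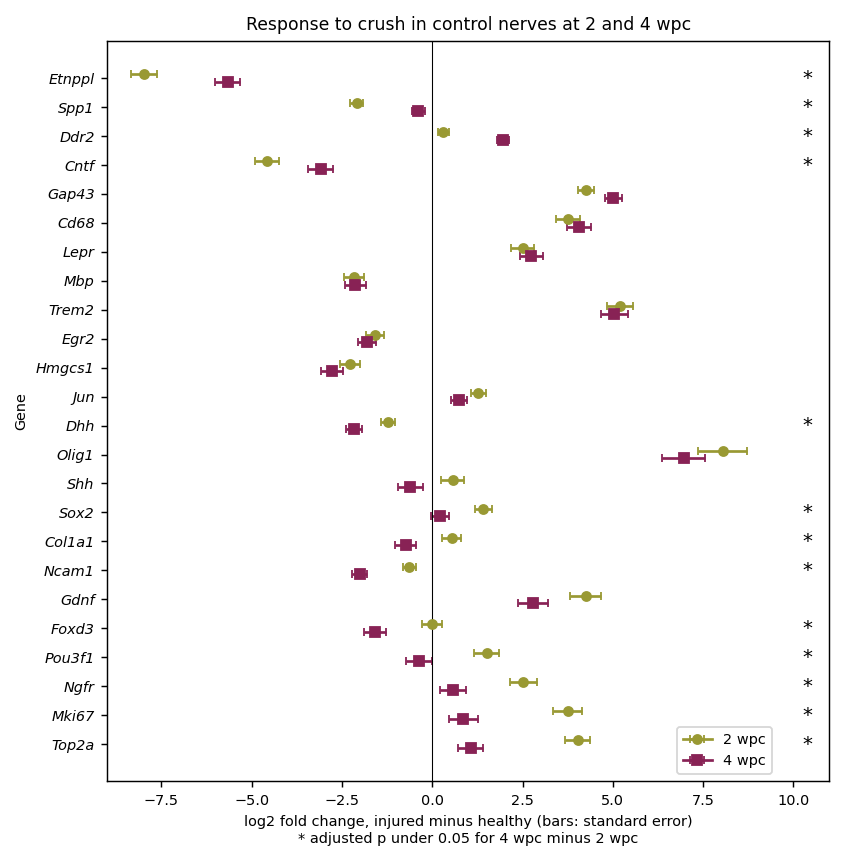
Log2 fold changes of injured against healthy control nerves at 2 wpc (circles) and 4 wpc (squares) with standard errors for 24 genes, ordered by the difference; stars mark an adjusted p under 0.05 for the difference. Cell cycle genes and *Ngfr*, *Pou3f1* and *Sox2* have lower responses at 4 wpc, and *Etnppl*, *Spp1*, *Ddr2* and *Cntf* higher ones.

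Of the genes called in this difference with a mean log2 CPM above 3, the 3 with the smallest adjusted p in each direction follow, with others. *Ddr2*, a collagen receptor of fibroblasts, rose at 4 wpc from 37.2 ± 2.72 to 145 ± 30.2 CPM (log2 fold change 1.96) and had not passed at 2 wpc (0.30), a difference of 1.66 ± 0.23 (adjusted p = 4.43e-05). *Spp1* had been lower than in healthy nerves at 2 wpc (-2.10) and was closer to them at 4 wpc, a difference of 1.72 ± 0.25 (adjusted p = 0.000122). *A330015K06Rik*, an antisense RNA whose reads could be shared with an overlapping gene if strand was not used in counting, was further below the healthy level at 2 wpc (-6.14) than at 4 wpc (-3.50), a difference of 2.64 ± 0.35 (adjusted p = 3.47e-05). In the other direction were *Ncapd2*, a condensin subunit of dividing cells (-1.26 ± 0.17, adjusted p = 4.43e-05), *Reck*, an inhibitor of matrix proteases (-1.18 ± 0.17, adjusted p = 5.76e-05), and *Dagla*, which makes the endocannabinoid 2-AG (-1.65 ± 0.25, adjusted p = 0.000129). *Cntf* had a response of -4.58 at 2 wpc, and *Etnppl* and *Cnmd* of -7.99 and -6.54, all further below the healthy level than at 4 wpc (differences 1.49 ± 0.46, 2.33 ± 0.46 and 2.06 ± 0.56, adjusted p = 0.0344, 0.00161 and 0.0172). For *Cntf* the difference missed the threshold with the animal as a block (adjusted p = 0.0939) and in 10 alternatives in all (0.00698 to 0.0939 over 27 alternatives), and *Hhip*, at 3.71 ± 1.14 (adjusted p = 0.0343), likewise with the block (0.117) and in 8 in all (0.0116 to 0.255 over 24 alternatives). *Col1a1* had a response of 0.54 at 2 wpc, and its difference, -1.27 ± 0.39 (adjusted p = 0.0325), missed it when any of 6 libraries was left out in turn (0.00984 to 0.0763 over 27 alternatives). Neurofilament genes were closer to the healthy level at 4 wpc, with differences of 2.06 ± 0.38 (adjusted p = 0.000798) for *Nefl* and 1.88 ± 0.41 (adjusted p = 0.00312) for *Nefh*. *Jchain*, a gene of antibody-secreting cells, had a response of 0.91 at 2 wpc and 4.48 at 4 wpc (difference 3.57 ± 0.94, adjusted p = 0.0135). At 4 wpc *Jchain* had 5, 3, 4, 3 and 8 counts in healthy and 45, 140, 18 and 9 in injured nerves, the most in animal WT-171.

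In the *Lepr*-cKO nerves of the same time, from other animals, 3094 genes were called higher and 1990 lower. When the response of these mice was compared with that of control mice, using the same 9 control libraries as above, no gene was called (0%) or had an adjusted p under 0.05 in edgeR, with 2013 genes at an unadjusted p under 0.05 and 4 called by DESeq2, all lower. Responses side by side were -2.77 in control and -1.79 in *Lepr*-cKO nerves for *Prx* (difference 0.98 ± 0.38, adjusted p = 0.385), -3.57 and -2.64 for *Sqle* (difference 0.94 ± 0.33, adjusted p = 0.385), and 3.25 and 1.98 for *mt-Co1* (difference -1.27 ± 0.58, adjusted p = 0.435). The medians were -1.76 and -0.90 for the myelin list, -2.78 and -1.79 for cholesterol synthesis, and 2.73 and 2.83 for macrophages. A test that misses the threshold does not show that the responses were alike.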

How the data were processed

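Endoneurial RNA of distal sciatic nerve was sequenced as single 50-base reads from TruSeq RNA v2 libraries, a kit that does not mark strand. The authors demultiplexed the reads with bcl2fastq 2.20.0.422, aligned them with STAR 2.5 to mouse genome GRCm38 with at most 2 mismatches a read, and featureCounts 1.5.0-p1 gave the reads of each gene. They deposited raw counts for 55573 Ensembl genes in 1 file per library. The settings for strand and for reads with several positions were not given in the sources used here, so overlapping, antisense and near-identical genes are uncertain.

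Counts were analysed in edgeR 4.0.16 (R 4.3.3) with TMM factors and the quasi-likelihood test in 1 model of all 39 libraries and 8 groups. Genes passed filterByExpr (minimum count 10, minimum total 15), which left 18442. P-values were adjusted by the Benjamini-Hochberg method over all tested genes, and a call needed an adjusted p under 0.05 together with a log2 fold change beyond 1 in either direction, the thresholds that the study used with DESeq2. The standard error is the log2 fold change over the square root of F. Log2 CPM used a prior count of 2. Differences between times or genotypes were interaction contrasts in the same model. Names came from GENCODE M21, which named 99.95% of tested genes. On simulated counts for the injured against healthy comparison, run on 18442 genes, edgeR recovered 192 of 200 genes changed 4-fold with 2 false calls, DESeq2 1.42.0 recovered 193 with 6, and edgeR made 0 calls where no gene was changed. The changed genes were drawn from those with a mean CPM above 1. The simulated spread followed the trend over expression, with no correlation within an animal. Recovery at lower levels, or with as many genes changed as in the data, was not tested.

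No libraries were duplicates (chi-square per degree of freedom 11.7 to 53.0 between libraries of a group). Animal numbers in the sample titles pair the 2 nerves of an animal, which comes from the design. Deviations from the group means over 5000 genes correlated at 0.384, -0.116, 0.522 and 0.365 for animals WT-170, WT-171, WT-173 and WT-178. The model with the animal as a block was an alternative. The others were DESeq2, its size factors, no filter, a mean CPM above 1, mitochondrially encoded genes left out, only the compared groups, counts thinned to 10905806 per library, each library left out, adjusted p alone and, added after the data were seen, female animals only. Fold changes past the threshold were estimated, not tested against it.

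The members and the 39 gene lists were chosen with earlier results of these data known. Named genes were a list of 36, the 6 protein-coding genes per direction that changed most among those called, with a mean log2 CPM over 3 and groups that did not overlap, and the 3 per direction with the smallest adjusted p for the time difference. Other named genes are members of the lists, picked as examples after their values were seen. Some genes that this rule or these lists name are not reported here, though list counts, sums and medians include them. Precision is limited by 4 and 5 libraries per group and totals of 10905806 to 43521795 counts.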

Additional observations from a re-analysis of the deposited data

Results flagged for a closer look

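Among the 9 control libraries at 4 wpc, 180 groups of values (a gene, list or library measure in the injured or in the healthy nerves) were searched for 1 library far from the others of its group by Dixon's 95% critical value. Such a library was found in 8 of the 180, which is no more than chance gives at about 1 group in 20. *Fasn*, the fatty acid synthase, reached 143 CPM in the injured nerve of animal WT-171, and the next injured nerve was at 108 CPM. *Pdgfra*, the receptor of the fibroblast lineage, was at 142 CPM in the healthy nerve of animal WT-170, with the next at 86.5 CPM. *Gli1*, the hedgehog target, was at 78.3 CPM in the injured nerve of animal WT-173, with the next at 49.6 CPM. *Atp6v0d2* was at 423 CPM in the injured nerve of animal WT-178, with the next at 351 CPM.

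The share of mitochondrially encoded mRNA in the injured nerve of animal WT-173 was 14.996%, below the 18.9% of the next. The share of genes annotated as rRNA in the healthy nerve of animal WT-168 was 0.0331%, below 0.0562%. Interferon-stimulated genes summed to 888 CPM in the healthy nerve of animal WT-173, above 472 CPM in the next, and pericyte and smooth muscle genes to 464 CPM in the injured nerve of animal WT-171, above 267 CPM. No list was rebuilt without these values other than by leaving out the library.

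The response to injury differed between 4 and 2 wpc by the interaction test, with an adjusted p under 0.05 from edgeR, for 17 of the genes named by rule. Of the 48 named by the list or for their change at 4 wpc, 11 (22.9%) passed, against 9.1% of all tested genes. The other 6 (*A330015K06Rik*, *Ddr2*, *Spp1*, *Ncapd2*, *Reck* and *Dagla*) were named for their small adjusted p in this same test, so that their passing was given. The choice could raise the share among the 48 as well. Some were picked by their response at 4 wpc, which is part of the tested difference, and the list was set with earlier results known. The differences in log2 fold change, 4 wpc minus 2 wpc, were negative for *Pou3f1* (-1.88), *Ngfr* (-1.95), *Ncam1* (-1.37), *Col1a1* (-1.27), *Dhh* (-0.95), *Mki67* (-2.88), *Top2a* (-2.96), *Ncapd2* (-1.26), *Reck* (-1.18) and *Dagla* (-1.65). They were positive for *Hhip* (3.71), *Cntf* (1.49), *Etnppl* (2.33), *Cnmd* (2.06), *A330015K06Rik* (2.64), *Ddr2* (1.66) and *Spp1* (1.72). The mice of the 2 times were different animals, so time and the set of mice cannot be told apart.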

How the results depend on the processing

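The number of genes called in injured against healthy control nerves at 4 wpc stayed within 1.5 times of 6630 under each alternative other than dropping the fold threshold, from 4808 with a mean CPM above 1 to 7366 with no filter. It was 6651 with DESeq2, 5626 with counts thinned to the smallest library and 5575 with only the compared groups in the model. With the adjusted p alone the numbers were 11721 in all, 5966 higher and 5755 lower, and for the difference between 4 and 2 wpc 1678, 747 and 931 in place of 815, 296 and 519. Leaving out 1 library gave 6420 to 6734 genes, 3543 to 3720 higher and 2856 to 3014 lower. For the difference in time it gave 583 (without the injured 2-week nerve of WT-123) to 1084 (without that of WT-144), with 193 to 410 higher over the same pair of libraries. For the difference between genotypes it gave 0 to 24 genes, the highest without the injured *Lepr*-cKO nerve of animal KO-177 and 4 without the injured control nerve of animal WT-173, and DESeq2 called 4.

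With the animal as a block, which uses the pairing of the nerves, 6600 genes were called, 6266 of them shared with the model without it (94.5% of those calls). The difference in time gave 911 genes, 657 of them shared with the model without the block (80.6% of those calls). The difference between genotypes gave 0. The block ended the call of a time difference for *Cntf* and *Hhip* and moved list counts to 1 promyelinating factor higher, 2 hedgehog genes higher, 8 cell cycle genes higher, 2 interferon-stimulated genes lower and 4 erythrocyte genes lower. It changed no other call of a gene named by rule, and no other list count by over 1.5 times.

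Of 1261 adjusted p-values of named genes under alternatives, 1215 kept their side of the threshold, 40 lost it and 6 gained it, and no direction turned. Of 1482 list counts, 1409 stayed within 1.5 times, and of 701 list medians, 682 moved by less than the SD over animals. The cause of the changes was not tested. Injured libraries were shallower than healthy ones, which limits genes of a few counts, and both nerves came from operated animals.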
